A study of Mus musculus with 12 samples.

Results

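A set of 8 genes of thyroid hormone metabolism and response, out of 55487 genes in the count table, were followed in the liver and brain of mice with and without Mettl5. They were taken by symbol: the deiodinases Dio1 and Dio2, the receptors Thra and Thrb, the transporter Slco1c1, the hormone-binding protein gene Crym, and the responsive genes Hr and Klf9. All 8 were found in the table. The libraries came from 6 mice, with liver and brain from each, which gave 4 groups of 3 libraries: WT liver and WT brain (mice B, D and E), and KO liver and KO brain (mice A, C and F). METTL5 is an RNA methyltransferase that modifies an adenosine of 18S rRNA. The KO mice descend from a floxed allele of exon 2 of Mettl5, made in hybrid embryonic stem cells, backcrossed to B6 and recombined by a CMV-driven Cre, so the loss was meant for the whole body. The labels call the controls WT, whereas the study's text speaks of heterozygous mice as controls in its RNA-seq, and WT is used here as the labels use it. The labels give no strain detail, sex, age, litter or batch, and each library comes from the liver or brain of 1 animal. The study's text speaks of pairs of control and KO mice, but no label ties a KO mouse to a given control, and genotypes were not paired in any fit. The question asked of these genes was whether liver or brain of KO mice showed altered thyroid signalling.

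The thyroid gland releases mostly the prohormone thyroxine (T4). Deiodinases convert it in tissues to triiodothyronine (T3), which binds nuclear receptors encoded by Thra and Thrb, and these receptors sit on target genes with a retinoid X receptor and exchange corepressors for coactivators when T3 is bound. Liver is known for Dio1 and Thrb and for lipogenic genes that respond to T3, whereas brain is known for astrocytic Dio2, for Thra, and for transporters that carry T4 across the blood-brain barrier.

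Library totals ran from 14403309 to 21623180 counts. Counts of Mettl5, the targeted gene, were 290, 127 and 147 in the WT livers and 64, 65 and 78 in the KO livers, and 141, 117 and 100 in the WT brains against 41, 55 and 58 in the KO brains, with no overlap in either tissue. The log2 fold change was -1.44 in liver (SE 0.27, adjusted p = 0.383) and -0.84 in brain (SE 0.27, adjusted p = 0.373), so even the targeted gene did not pass the adjusted threshold, while DESeq2 called it in liver (adjusted p = 0.00193). Counts covered all exons, so they do not single out exon 2. The tissue labels held: 8 hepatocyte markers summed to 66945 to 86312 CPM (counts scaled to the library size) in the livers and to at most 381 CPM in the brains, and 8 neuronal markers to 2789 to 3442 CPM in the brains and at most 17.2 CPM in the livers. Some features of the libraries moved with genotype. The share of counts from the mitochondrial rRNAs was 10.7% to 16.9% in WT and 7.36% to 8.66% in KO livers, and 7.63% to 17.7% in WT and 21.4% to 31.6% in KO brains. All 6 markers of Kupffer cells, the macrophages of liver, had lower estimates in KO liver (median -0.56, 1 at an unadjusted p under 0.05), with sums of 182 to 311 CPM in WT and 126 to 253 in KO that overlapped, and their part in the liver results was not tested. In brain, 10 cerebellar markers summed to 1036 to 1573 CPM in WT and 262 to 678 in KO, and 9 olfactory bulb markers to 23.3 to 35.6 CPM in WT and 86.5 to 119 in KO. Mice E and F had at most 20 counts of 4 Y-linked genes in either tissue, against at least 2112 in the other mice, so each genotype held 1 such mouse.

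Among the members, the 2 deiodinases that make T3 differed between tissues in opposite directions. Dio1 encodes the type 1 deiodinase of liver, kidney and thyroid, and lies on the minus strand at chr4:107291465-107307169 (mm10). Its counts were 1113, 1201 and 573 in WT livers (mice B, D and E) and 659, 1298 and 2029 in KO livers (mice A, C and F), against 1, 4 and 0 in WT brains and 0 in each of the 3 KO brains. Every liver library was thus far above every brain library. Among WT mice Dio1 was higher in liver by 9.82 on the log2 scale (SE 0.57, adjusted p = 1.24e-07, edgeR quasi-likelihood F test), a size that leans on the 5 counts seen over the WT brains. In bulk tissue, a difference in the share of a cell type and one in RNA per cell cannot be told apart.

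Dio2 encodes the type 2 deiodinase, which makes T3 locally from T4, and lies on the minus strand at chr12:90724552-90738438. Its counts ran the other way, with 0, 0 and 1 in WT livers and 0 in each of the 3 KO livers, against 917, 621 and 851 in WT brains and 973, 721 and 1130 in KO brains. With 1 count over the WT livers and 2389 over the WT brains, the ratio of brain to liver per effective library size was 1427, with an exact 95% Poisson interval of 256 to 56386 that covers counting error only. The bases upstream of the RefSeq starts of these genes are shown because the pair encodes the same step and differed between tissues in opposite directions. Each window is the 250 bases before the start, 5′ to 3′ on the gene's strand (GRCm38.p6), with chr4:107307169-107307418 for Dio1 and chr12:90739039-90739288 for Dio2. The RefSeq start of Dio2 lies upstream of the 5′ end that the counting annotation gives the gene. Capitals mark a TATA box (TATAAA), a cAMP response element (TGACGTCA) and the AGGTCA element that receptors bind, searched on both strands.
Dio1: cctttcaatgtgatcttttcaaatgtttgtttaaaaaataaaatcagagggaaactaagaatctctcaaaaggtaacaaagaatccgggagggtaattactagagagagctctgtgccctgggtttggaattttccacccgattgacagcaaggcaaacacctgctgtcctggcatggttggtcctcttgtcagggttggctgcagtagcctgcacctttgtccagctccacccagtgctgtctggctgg
Dio2: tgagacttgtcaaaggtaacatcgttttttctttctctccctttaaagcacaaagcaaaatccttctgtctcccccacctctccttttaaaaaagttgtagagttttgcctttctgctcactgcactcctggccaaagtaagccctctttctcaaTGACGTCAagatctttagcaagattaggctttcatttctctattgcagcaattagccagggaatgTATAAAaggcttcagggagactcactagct
The Dio2 window held TGACGTCA from base -95 and TATAAA from base -30, and the Dio1 window held none of the motifs searched. Over all 32851 promoter windows of this length, 1.55% held TGACGTCA, 12.4% held TATAAA, 14% held AGGTCA and 0.0152% held 2 such elements spaced by 4 bases (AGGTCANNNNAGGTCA). RefSeq windows were matched for 5 of the 8 members, and among the other matched members AGGTCA was found upstream of Thrb, from base -184 of its distal start, and TATAAA from base -167 of its proximal start.

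The receptors differed between tissues in opposite directions. Thra encodes the receptor that predominates in brain, heart and bone, and lies on the plus strand at chr11:98740638-98769006. Its 3′ end overlaps Nr1d1, a clock repressor on the other strand, by 1075 bases, and counting used the strand. Thra had 7193, 11656 and 10582 counts in WT brains and 535, 281 and 427 in WT livers. The log2 difference between liver and brain was -3.82 (SE 0.22, adjusted p = 6.2e-08). Gene counts do not separate the hormone-binding isoform from the splice form of Thra that does not bind T3. Thrb, the receptor that predominates in liver and also serves the pituitary feedback (chr14:17660261-18038090, plus strand), had 1359, 1102 and 1152 counts in WT livers and 943, 776 and 1163 in WT brains. After normalisation all 3 WT livers lay above all 3 WT brains, with a log2 difference of 1.06 (SE 0.19, adjusted p = 0.000452).

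Slco1c1 and Crym handle the hormone outside the receptor. Slco1c1 encodes a high-affinity T4 transporter of brain capillaries and choroid plexus (chr6:141524368-141570177, plus strand). It had 248, 343 and 357 counts in WT brains and 227, 223 and 288 in KO brains, but 0, 1 and 0 in WT livers and 0, 1 and 4 in KO livers. The ratio of WT brain to WT liver, 948 counts to 1, was 566 per effective library size (exact 95% Poisson interval 101 to 22389). Crym encodes mu-crystallin, a cytosolic protein that binds T3 (chr7:120186380-120202111, minus strand). Counts of Crym were 281, 257 and 510 in WT brains and only 14, 1 and 18 in WT livers, and the log2 difference between liver and brain was -4.24 (SE 0.53, adjusted p = 4.45e-05).

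Of the 2 responsive genes, 1 separated the tissues. Hr encodes hairless, a corepressor whose gene responds to T3 in brain (chr14:70552212-70573548, plus strand). It had 496, 1385 and 847 counts in WT brains and 17, 32 and 34 in WT livers, a log2 difference of -4.23 (SE 0.38, adjusted p = 2.87e-06). Klf9, a zinc finger transcription factor gene induced by T3 and by glucocorticoids (chr19:23141226-23168134, plus strand), had 1554, 1727 and 1297 counts in WT livers and 1972, 1849 and 2668 in WT brains. After normalisation the log2 difference between liver and brain of 0.26 (SE 0.21, 95% interval -0.20 to 0.72) did not pass the test (adjusted p = 0.283). Of the 8 members, 7 were thus called between WT tissues, where 78.3% of the 17694 genes tested were called.

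**Figure D1:**
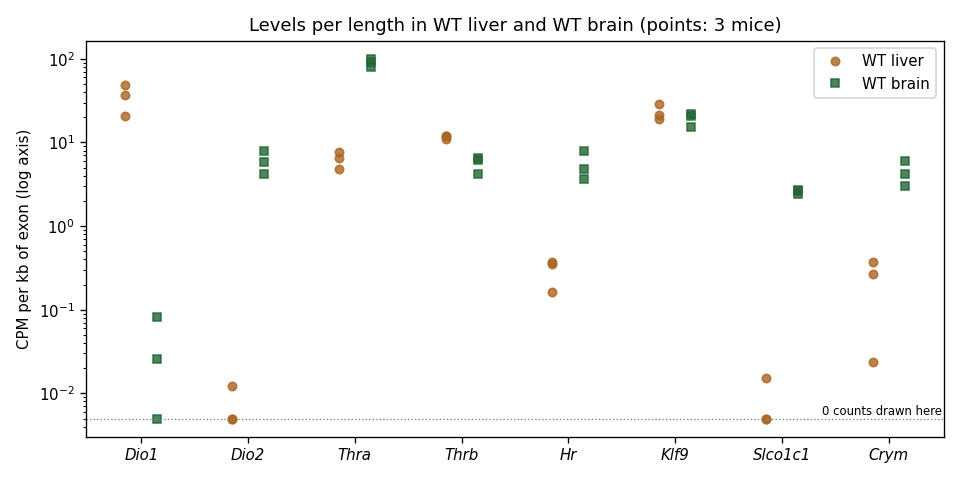
Level of each gene in WT liver (circles) and WT brain (squares), as CPM per kb of exon on a log axis, 1 point for each of 3 mice, with libraries at 0 counts drawn on the dotted line. Dio1 lies far toward liver and Dio2 and Slco1c1 far toward brain, while the points of Klf9 overlap.

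Set side by side per kb of exon, the order of levels in WT liver was Dio1 (35.4 CPM per kb ± 14.0, SD, n = 3), Klf9 (22.9 ± 4.99), Thrb (11.6 ± 0.52), Thra (6.34 ± 1.38), Hr (0.293 ± 0.115) and Crym (0.224 ± 0.18), with Slco1c1 and Dio2 at most at 1 count a library. Dio1 and Klf9 overlapped in range, as did Hr and Crym, and the other neighbours down to Crym did not. In WT brain the order was Thra (90.1 ± 10.9), Klf9 (19.3 ± 3.54), Dio2 (6.01 ± 1.87), Thrb (5.61 ± 1.25), Hr (5.48 ± 2.24), Crym (4.39 ± 1.48), Slco1c1 (2.59 ± 0.16) and Dio1 (0.0355 ± 0.041). The 4 genes from Dio2 to Crym each overlapped the next, whereas Thra, Klf9, Slco1c1 and Dio1 stood clear of their neighbours. Klf9 ranked second in both tissues.

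In KO against WT liver no thyroid hormone gene passed the test. Of the 8 members, 6 passed the filter on low counts (Dio2 and Slco1c1 did not), 3 had higher and 3 lower estimates, and their median log2 fold change was -0.031, beside -0.0024 over all 14075 genes tested. None was called at an adjusted p under 0.1 by edgeR, none reached an unadjusted p under 0.05 and none was called by DESeq2. At that unadjusted p, 1 member was higher with RLE size factors, with the mitochondrial rRNAs left out, or without mouse B or C, and 1 was lower without mouse A. Over all genes the called share was 0%, the share at an unadjusted p under 0.05 was 7.33%, and the share whose groups did not overlap was 12.9%. The groups of every tested member overlapped.

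The liver deiodinase gene was among the most variable members. Dio1 read 57.3, 76.9 and 32.5 CPM in WT livers and 39.7, 72.6 and 106 CPM in KO livers, so mouse F was the highest and mouse E the lowest, the 2 mice with few Y-linked counts. The estimate was 1.31-fold (95% interval 0.612 to 2.8, adjusted p = 0.915), which holds both a lower and a higher level in KO. The receptors were measured more tightly. Thra read 27.5, 18 and 24.2 CPM in WT and 31.9, 25.7 and 35.9 CPM in KO livers, overlapping only through KO mouse C and WT mouse B, for a log2 fold change of 0.42 (SE 0.19, adjusted p = 0.678, edgeR). Thrb read 70.0, 70.6 and 65.4 CPM in WT and 66.4, 57.1 and 51.9 CPM in KO livers, with KO mouse A inside the WT range. Its log2 fold change was -0.23 (SE 0.13, 95% interval -0.53 to 0.069, adjusted p = 0.774).

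Klf9 read 80.0, 111 and 73.6 CPM in WT and 121, 93.8 and 82.5 CPM in KO livers, and the groups overlapped widely. The 95% interval of its fold change ran from 0.825 to 1.53 (adjusted p = 0.913). Hr and Crym were near the limit of detection in liver, with 14 to 34 and 1 to 18 counts. Their log2 fold changes of -0.58 (SE 0.44) and -0.69 (SE 0.90) had adjusted p-values of 0.859 and 0.927.

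**Figure D2:**
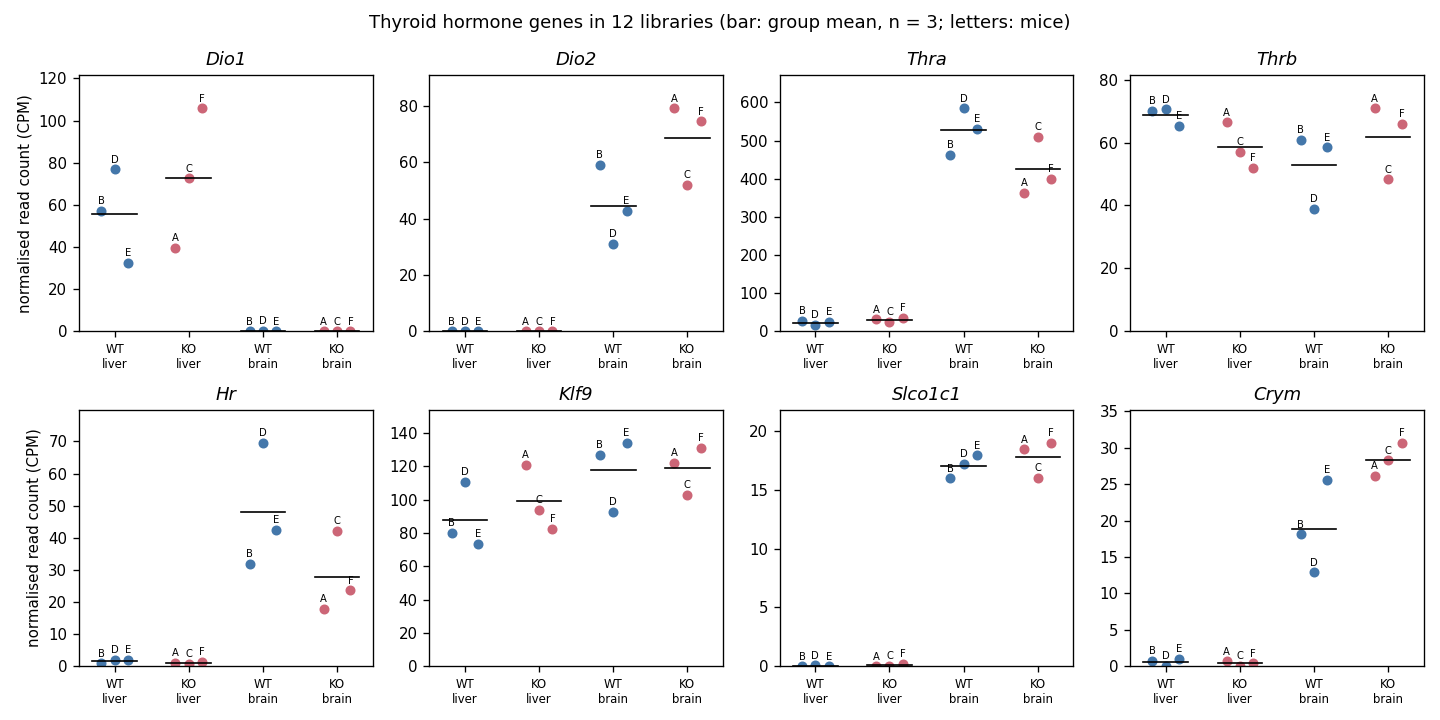
Normalised read count (CPM, linear axes from 0) of each gene in the 12 libraries, with 1 point per mouse, its letter, and a bar at the mean of each group of 3. Libraries were normalised within each tissue, so liver and brain levels are not on 1 scale here. Crym is the gene whose KO brains all lie above the WT brains (26.2 to 30.7 against 12.9 to 25.6 CPM), and in liver no gene's groups separate.

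In KO against WT brain the members with the smallest p-values were Dio2 and Crym, both with higher estimates in KO, and neither passed the adjusted threshold. Of the 8 members, 7 were tested (all but Dio1), 5 had higher and 2 lower estimates, and the median was 0.064, beside -0.0016 over all 17188 genes. No member was called by edgeR or by DESeq2, where 11 genes, or 0.0640% of all, were called by edgeR. Of those 11 genes, 6 were among the 9 olfactory bulb markers. Both Dio2 and Crym reached an unadjusted p under 0.05, beside 11.0% of all genes, or 5.96% counted on the higher side alone. The count of members on that side fell to 1 without mouse A, B or E and to 0 without mouse D or F. On the lower side it rose from 0 to 1 without mouse B or with an offset for GC content and length, and to 2 without mouse C. Only Crym, 1 of the 7, had groups that did not overlap, beside 16.3% of all genes (8.41% of all genes higher in KO and 7.94% lower).

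Dio2 read 59.1, 31.2 and 42.8 CPM in WT brains and 79.1, 51.9 and 74.5 CPM in KO brains. KO mouse C lay below WT mouse B, so the groups overlapped. The estimate was 1.55-fold (95% interval 1.05 to 2.27, adjusted p = 0.411, edgeR). Astrocytes and the tanycytes of the third ventricle are known as the cells that express Dio2. Of the 7 astrocyte markers measured, 1 had a higher estimate in KO, and their summed level was 3182 to 4250 CPM in WT and 3103 to 4255 CPM in KO. The 5 tanycyte markers summed to 38.4 to 42.5 CPM in WT and 42.8 to 56.9 CPM in KO, but most of that was Vcan, a matrix proteoglycan gene (mean 28.2 CPM in WT and 36.8 in KO). Rax and Gpr50, the more specific of them, had 0 to 2 and 0 to 11 counts in WT and 0 to 5 and 5 counts in KO brains. The part of tanycytes in the Dio2 values was not tested.

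Crym read 18.1, 12.9 and 25.6 CPM in WT brains and 26.2, 28.3 and 30.7 CPM in KO brains, every KO mouse above every WT mouse by a small margin. The estimate was 1.5-fold (95% interval 1.05 to 2.15, adjusted p = 0.411, edgeR). Crym is known from forebrain neurons, including those of striatum and cortex. The 9 striatal markers, of which all 9 had higher estimates in KO, summed to 709, 401 and 726 CPM in the WT brains of mice B, D and E and to 1041, 721 and 735 CPM in the KO brains of mice A, C and F. The 7 cortical markers summed to 385 to 728 CPM in WT and 577 to 680 CPM in KO. WT mouse D was lowest for Crym and for both marker sums, and the part of tissue makeup in the Crym values was not tested.

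Thra and Hr had lower estimates in KO brain, and neither passed the test. Thra read 464, 585 and 532 CPM in WT and 364, 510 and 400 CPM in KO brains, with KO mouse C inside the WT range, for a log2 fold change of -0.31 (SE 0.17, adjusted p = 0.510). Hr read 32.0, 69.5 and 42.6 CPM in WT and 17.8, 42.1 and 23.6 CPM in KO brains, again with mouse C inside the WT range, for -0.79 (SE 0.37, adjusted p = 0.466). These are the members richest in G and C, at 59.8% and 61.6% of the bases of their longest transcript, while the other 6 lay between 43.1% and 51.0%. Among all tested genes the median log2 fold change in brain ran from 0.24 in the 3330 genes lowest in GC to -0.17 in the 3330 highest, and in liver from -0.13 (2729 genes) to 0.078 (2728 genes). With an offset for GC content and length, chosen after seeing this, the brain value of Thra was -0.069 (adjusted p = 0.832) and that of Hr -0.51 (adjusted p = 0.277), while Dio2 was at 0.55 and Crym at 0.61. The cerebellar marker sums were also lower in KO brain (262 to 678 CPM against 1036 to 1573 in WT). The part of tissue makeup in the Thra and Hr values was not tested.

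Within each genotype the brain libraries kept 1 order across several of these genes. From high to low, Dio2 and Thrb followed the mice B, E, D in WT and A, F, C in KO, Thra and Hr followed the reverse, and the share of mitochondrial rRNA followed the first order. This order was noticed in the values and not tested. Thrb read 60.8, 38.9 and 58.4 CPM in WT and 70.9, 48.3 and 65.9 CPM in KO brains, a log2 fold change of 0.23 (SE 0.20, adjusted p = 0.666).

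The brain estimates of Klf9 and Slco1c1 were the closest to 0 among the members. Klf9 read 127, 92.8 and 134 CPM in WT and 122, 103 and 131 CPM in KO brains, and its fold change was 1.01 (95% interval 0.775 to 1.31, adjusted p = 0.983). Slco1c1 read 16.0, 17.2 and 17.9 CPM in WT and 18.5, 16.0 and 19.0 CPM in KO brains, a fold change of 1.05 (95% interval 0.832 to 1.31, adjusted p = 0.876). Among markers of the cells known to express it, 10 endothelial markers summed to 103 to 162 CPM in WT and 90.1 to 120 CPM in KO, and 9 choroid plexus markers to 44.3 to 62.4 CPM in WT and 28.4 to 34.5 CPM in KO, with every marker counted in every brain library. Their part in the Slco1c1 values was not tested. Dio1 in brain had 5 counts over the WT libraries and 0 over the KO libraries, too few to compare.

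**Figure D3:**
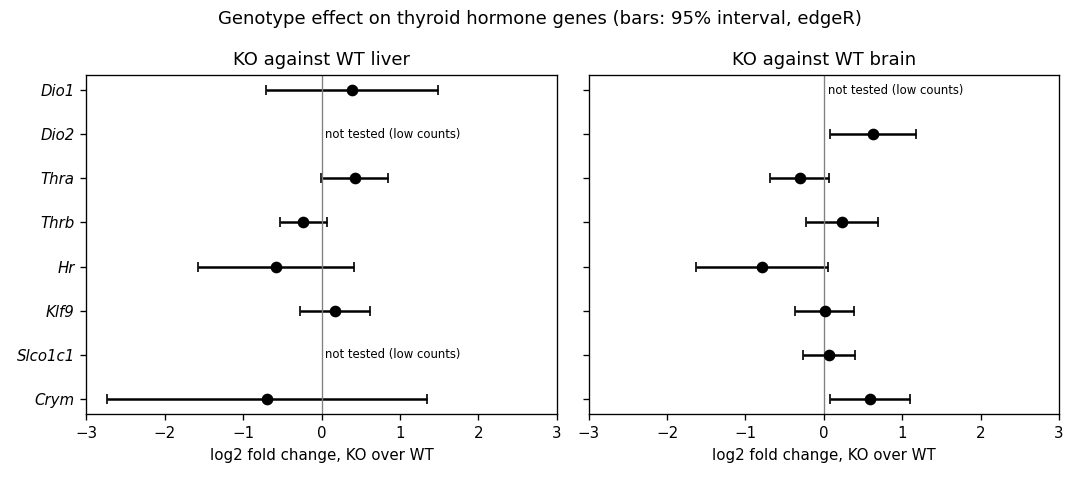
Log2 fold change of KO over WT for each gene in liver (left) and brain (right), with 95% intervals from edgeR. Only the intervals of Dio2 and Crym in brain leave out 0 (0.077 to 1.18 and 0.074 to 1.1), and neither gene passed the adjusted threshold.

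A fit of all 12 libraries asked whether the genotype effect in liver differed from that in brain. No member was called by edgeR or DESeq2, where edgeR called 0% of the 18944 genes tested. Only 1 member, Thra, reached an unadjusted p under 0.05, beside 10.6% of all genes. For Thra, the effect in liver exceeded that in brain by 0.77 on the log2 scale (SE 0.28, adjusted p = 0.369). With the GC and length offset this value was 0.43. The same difference, liver minus brain, was -0.43 for Thrb (SE 0.26, adjusted p = 0.588), 0.19 for Klf9 (SE 0.28, adjusted p = 0.860), 0.25 for Hr (SE 0.60, adjusted p = 0.948) and -1.27 for Crym (SE 0.82, adjusted p = 0.605). Dio1, Dio2 and Slco1c1 had at most 4 counts a library in 1 tissue, so their values carry no comparison.

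A ratio of the receptor genes within each library does not depend on how libraries are scaled. Per kb, Thra stood to Thrb as 0.632, 0.409 and 0.595 in WT livers and as 0.772, 0.724 and 1.11 in KO livers. All 3 KO livers lay above all 3 WT livers, by 1.59-fold on average, with an exact permutation p of 0.1 (two-sided, n = 3 against 3), the smallest this design allows, so it cannot reach 0.05. In brain the ratio was 12.2, 24.1 and 14.6 in WT and 8.23, 17.0 and 9.75 in KO, overlapping, at 0.681-fold with an exact permutation p of 0.3. The 2 genes differ in GC content (59.8% and 44.1%), and the GC trends described above also ran in opposite directions in the 2 tissues. Their part in the ratio was not tested.

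**Figure D4:**
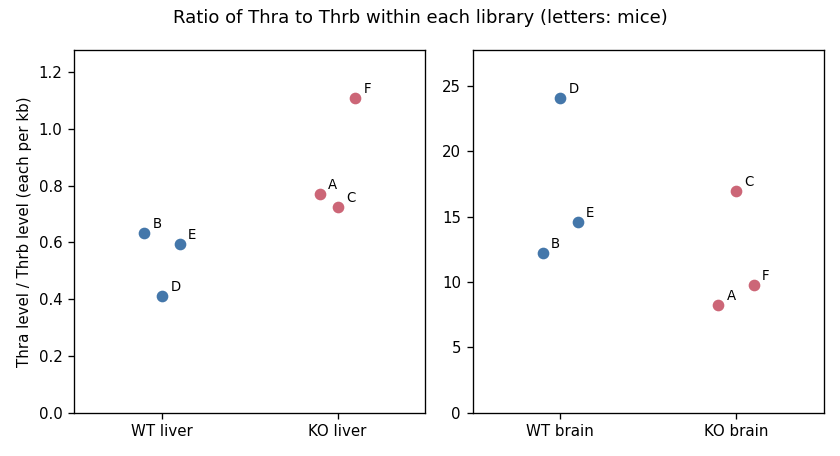
Ratio of Thra to Thrb, each per kb of exon, in every library of liver (left) and brain (right), on linear axes from 0 with mice named by letter. The KO livers (0.724 to 1.11) lie above the WT livers (0.409 to 0.632), and the KO and WT brains overlap.

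The wider pathway was read from lists of genes around the members. Thyroid hormone induces lipogenic and metabolic genes in liver, and of 14 such genes tested there, 5 had higher and 9 lower estimates in KO, with a median of -0.17. None was called by edgeR. An unadjusted p under 0.05 was reached by 5, all 5 lower and all 5 without overlap, beside 4.57% of all genes at p under 0.05 on the lower side (2.76% on the higher side) and 6.44% without overlap on the lower side (6.50% on the higher). Without mouse B, 3 were lower at an unadjusted p under 0.05, and 4 or 5 were with any of the other mice left out in turn. Thrsp, a lipogenic regulator that is a classic T3 target, read 401, 349 and 466 CPM in WT and 54.4, 131 and 80.1 CPM in KO livers, a log2 fold change of -2.20 (SE 0.31, adjusted p = 0.336). The other 4 make or feed fatty acids: Fasn, fatty acid synthase (-1.27), Me1, malic enzyme (-0.96), Acly, ATP citrate lyase (-0.93), and Acaca, acetyl-CoA carboxylase (-0.41), the last outside the naming rule and named for its count. DESeq2 called Thrsp (adjusted p = 1.08e-11), Acly (0.00692), Fasn (0.00169) and Me1 (0.0978) in the same libraries, and, from the lists described below, Dbp (0.0146) and Tsc22d3 (0.0767). Over all genes in liver DESeq2 also called far more than edgeR did, with the counts given under processing below. The study's text was known when this list was written, so its direction is not independent evidence. In brain, 8 of 10 tested genes of this list had lower estimates (median -0.23, or -0.098 with the GC and length offset and -0.011 without mouse D). Only Thrsp, at -0.56 (adjusted p = 0.340, edgeR), reached an unadjusted p under 0.05, beside 5.01% of all genes on the lower side. It was also the only one without overlap, beside 7.94% of all genes on that side.

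Receptor partners are the retinoid X receptors, corepressors and coactivators with which the receptors act. In liver 13 of the 14 tested had higher estimates in KO (median 0.14), 7 of them without overlap, beside 6.50% of all genes on that side. An unadjusted p under 0.05 was reached by 1, beside 2.76% of all genes on the higher side. That count was 0 without mouse A or C and with the GC and length offset. None was called by edgeR. With the GC and length offset the median was 0.079 and 11 were higher. In brain 10 of 14 had lower estimates (median -0.079), with Gps2, a subunit of the corepressor complex, at -0.51 (adjusted p = 0.391), and with that offset 9 of 14 were higher.

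Transport and plasma binding precede the receptor. Of 9 transporter genes tested in liver, 6 had higher estimates (median 0.16), but 4 of 9 did without mouse B (median -0.024) or F (-0.022). None was called by edgeR. In brain 2 of 6 had higher estimates (median -0.32), and Slco1a4, an organic anion transporter of the blood-brain barrier, read 20.9, 21.7 and 18.8 CPM in WT and 29.2, 22.8 and 28.9 CPM in KO brains (log2 fold change 0.40, SE 0.15, adjusted p = 0.411). The 3 plasma binding protein genes had lower estimates in KO liver (median -0.092, Ttr at -0.092 with adjusted p = 0.969), and none was under 0.05. Ttr encodes transthyretin, which carries T4 and is made in the brain by choroid plexus. It read 245, 344 and 196 CPM in WT and 97.4, 161 and 142 CPM in KO brains (log2 fold change -0.97, SE 0.24, adjusted p = 0.320), beside the choroid plexus marker sums given above, which were also lower in KO, and their part in it was not tested. DESeq2 called Ttr in brain (adjusted p = 0.0160), where over all genes it also called far more than edgeR did, with the counts given under processing below.

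Inactivation and the pituitary axis were sparsely measured in these tissues. Of 4 inactivating genes 3 were tested in liver, with a median of 0.028 and none under 0.05, and Sult1a1, a sulfotransferase, had the smallest p at -0.49 (adjusted p = 0.880). In brain 1 was tested, again Sult1a1, at 0.44 (adjusted p = 0.572). Of 9 genes of the pituitary axis and gland, 1 was tested in liver, Iyd, which recycles iodide (0.028, adjusted p = 0.987), and 4 in brain, 2 higher and 2 lower with a median of 0.060. Trh, the hypothalamic releasing hormone gene, was at 1.04 in KO brain (SE 0.32, adjusted p = 0.355), without overlap, beside 8.41% of all genes on the higher side. The olfactory bulb marker sums given above were also higher in KO brain, and the part of tissue makeup in the Trh values was not tested.

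Genes that T3 induces in brain had lower estimates for 11 of 15 tested in KO brain (median -0.27, or -0.073 with the GC and length offset). An unadjusted p under 0.05 was reached by 4, all lower, beside 5.01% of all genes on that side: Pcp2, a Purkinje cell gene (-1.94), Reln, reelin (-0.79), Sema7a, a semaphorin (-0.51), and Camk4, a neuronal kinase (-0.35), with adjusted p-values from 0.389 to 0.408. Of these, Pcp2 and Camk4 had groups without overlap, beside 7.94% of all genes on the lower side. The count at an unadjusted p under 0.05 was 1 without mouse A or D, 2 without mouse F, and 3 to 5 with B, C or E left out. Pcp2 is also 1 of the 10 cerebellar markers, all 10 of which had lower estimates in KO brain, and the part of the cerebellar share in this list was not tested. In liver 3 of the 10 tested had higher estimates (median -0.14), with Reln at 0.54 (adjusted p = 0.479) and Dbp, a clock output gene, at -2.34 (SE 0.81, adjusted p = 0.598), both at an unadjusted p under 0.05, beside 2.76% of all genes on the higher and 4.57% on the lower side. Dbp read 1.49, 12.5 and 11.6 CPM in WT and 1.69, 2.35 and 0.991 CPM in KO livers, with WT mouse B inside the KO range. Genes that T3 represses in brain had 4 of 6 higher in KO brain (median 0.13) and none under 0.05, with Aldh1a1, a retinaldehyde dehydrogenase, at -0.37 (adjusted p = 0.459). In liver 1 of 3 was higher (median -0.089), with Aldh1a1 at -0.57 (adjusted p = 0.738).

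**Figure D5:**
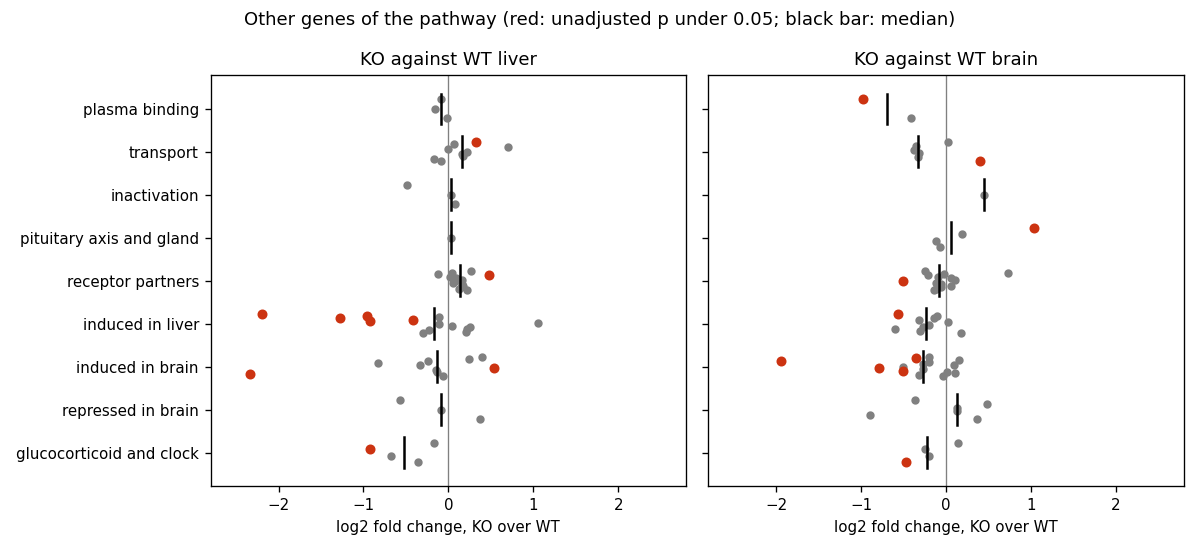
Log2 fold change of KO over WT for each tested gene of 9 lists around the hormone, in liver (left) and brain (right), with genes at an unadjusted p under 0.05 in red and list medians as black bars. The liver list of induced genes has 5 red points, all on the lower side, and the brain list of induced genes has 4, also all lower.

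Klf9 also answers glucocorticoids and the clock, so 4 genes with the same inputs (Fkbp5, Tsc22d3, Per1 and Sgk1) were read beside it. All 4 had lower estimates in KO liver (median -0.52), with Tsc22d3, a glucocorticoid-induced gene, at 64.9, 80.9 and 83.5 CPM in WT and 25.8, 34.9 and 59.8 CPM in KO (-0.93, SE 0.29, adjusted p = 0.501). In brain 3 of 4 were lower (median -0.22), with Sgk1, a kinase gene, at -0.47 (adjusted p = 0.415). Klf9 itself had estimates of 0.17 in liver and 0.011 in brain. Nr1d1, the neighbour that overlaps Thra, was at -0.56 in liver (SE 0.32, adjusted p = 0.793) and -0.65 in brain (SE 0.36, adjusted p = 0.524), so in liver its estimate lay on the other side of 0 from that of Thra and in brain on the same side. Its highest brain library in each genotype was that of mice D and C, as for Thra and Hr.

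The genes whose profiles were most like each member were named by the Pearson correlation of log2 CPM after centring on each tissue's mean. These are descriptions over few libraries that share depth, base composition and genotype. Over the 6 brains, Dio2 was most like Evi5 and Tmeff2 (r = 0.997 for both), Crym most like Akap6 (0.996) and Bcl11a (0.994), and Slco1c1 most like Mastl (0.983) and Nsun3 (0.977). Over the 6 livers, Dio1 was most like Dimt1 (0.982) and Snora23 (0.980). Over all 12 libraries, Thra was most like Dlc1 (0.941) and Mtus2 (0.936), Thrb most like Ap5m1 (0.95) and Pds5b (0.946), Hr most like Laptm5 (0.932) and Plcg2 (0.925), and Klf9 most like Ltn1 (0.986) and Map4k5 (0.929). No member was among the genes most like another.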

How the data were processed

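Total RNA was measured in 12 libraries. Per the labels and the study's methods, the authors made stranded libraries, sequenced single-end reads, checked them with FastQC 0.11.5, trimmed them with Trimmomatic, aligned them to mm10 with STAR 2.7.3a and counted reads over exons by strand with featureCounts. The deposited values are raw counts per gene, not normalised, for 55487 genes, and GENCODE M21 gave a symbol for 54349. The retinoid X receptor and water channel genes Rxra and Aqp4 on the lists were not analysed here.

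The members, the lists and the tests were chosen with earlier results of these data known. Tests used edgeR 4.0.16 (R 4.3.3) with TMM normalisation, the filterByExpr filter and robust quasi-likelihood F tests, comparing KO with WT on the 6 libraries of a tissue, WT liver with WT brain on the 6 WT libraries, and the difference between tissues on all 12. P-values were adjusted by Benjamini-Hochberg over all genes tested, with a call under 0.1. CPM are counts per effective (TMM-scaled) library size, and standard errors (SE) and 95% intervals come from the F statistic. Values per kb use the exonic length in the table. Where a tissue held few counts of a gene, the WT counts were summed and their ratio given with an exact Poisson interval, which covers counting error only. The scripts were tested on simulated data.

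All 8 members and Mettl5 are named. From each list the genes with the smallest p in each tissue are named, up to 4, and this was narrowed after seeing the values to those at an unadjusted p under 0.05, or the single gene with the smallest p where there was none. Brain list genes are named by the same rule. The values of 2 list genes that it would name in liver are not reported here. Alternatives were RLE size factors, no filter, DESeq2 1.42.0, mitochondrial rRNAs left out, each mouse left out, all 12 libraries in 1 fit, Y-linked counts as a covariate, mouse as a block and, added after seeing the data, an offset for GC content and length. The same letter marks the liver and brain of 1 animal, so the letters pair the tissues. Deviations from the group means in the 2 tissues of an animal correlated across 12574 genes at -0.0387 (mouse B) to 0.141 (mouse F). P-values measure the spread between these mice.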

Additional observations from a re-analysis of the deposited data

How the results depend on the processing

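No member was called in liver or for the difference between tissues under any alternative, and in brain members were called only with no filter on low counts, where 2 were: Dio2 (adjusted p = 0.0156) and Crym (0.0767). Between WT tissues 7 members were called under every alternative run. Of the other pathway genes on the lists, 0 were called in liver and brain, against 7 and 8 without the low-count filter and 6 and 1 by DESeq2, and in liver 1 (Thrsp) with all 12 libraries in 1 fit or without mouse C and 2 (Thrsp and Acly) without mouse D. The counts over all genes depended more on the processing. In liver 0 genes became 443 without the low-count filter, 171 by DESeq2, 3 with all 12 libraries in 1 fit and 82 with the Y-linked covariate, and between 0 and 87 with 1 mouse left out (87 without mouse D, 2 without mouse C). In brain 11 became 1000 without the filter, 269 by DESeq2, and 44 under the GC and length offset, and between 2 and 23 with 1 mouse left out (2 without E, 3 without B, 4 without D, 5 without F, 6 without A, 23 without C). The difference between tissues went from 0 to 1 with RLE size factors, 183 without the filter, 369 by DESeq2, and between 0 and 86 with 1 mouse left out (86 without D, 1 without F). With mouse as a replicate block it gave 68 calls, and 19 when the replicate block was joined by the GC and length offset, and neither fit called a member (Thra 0.78, adjusted p = 0.551 with the replicate block). The cause of these shifts was not tested. With 1 mouse left out the brain log2 fold change ran from 0.42 (without D) to 0.89 (without B) for Dio2 and from 0.37 (without D) to 0.88 (without E) for Crym, and the KO minus WT log2 ratio of Thra to Thrb ran from 0.48 (without D) to 0.79 (without B) in liver and from -0.86 (without C) to -0.27 (without D) in brain.

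The sign of small estimates turned in 14 cases. In liver these were Ttr without mouse B (0.071) or F (0.047), over a range from -0.27 to 0.071 with 1 mouse left out, and Iyd without D (-0.0041) or F (-0.14), over -0.14 to 0.11. In brain they were Klf9 with no filter (-0.013) and without A (-0.0094), D (-0.14) or F (-0.068), over -0.14 to 0.12, and Slco1c1 under the offset (-0.048). For the difference between tissues they were Klf9 without E (-0.024, over -0.024 to 0.53), and Hr without F (-0.11, over -0.11 to 0.87), with that offset (-0.16) and with it and the block (-0.13). Between WT tissues it was Klf9 without D (-0.077, over -0.077 to 0.48).

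With 1 mouse left out, liver list medians ran from -0.29 to -0.088 for genes induced in liver, 0.11 to 0.17 for receptor partners and -0.84 to -0.34 for the 4 genes read beside Klf9. They crossed 0 for transport (-0.024 to 0.26, below 0 without B or F), plasma binding (-0.27 to 0.060, above 0 without B, D or F, and 0.0041 with the offset), inactivation (-0.16 to 0.15, below 0 without B, C or F), genes induced in brain (-0.28 to 0.062, above 0 without E), genes repressed in brain (-0.26 to 0.10, above 0 without B or C) and the members (-0.16 to 0.031, above 0 without C or D). In brain they ran from -0.34 to -0.12 for genes induced in brain, -0.29 to -0.011 for genes induced in liver (nearest 0 without D), -0.41 to -0.16 for transport and 0.016 to 0.13 for the members, and crossed 0 for receptor partners (-0.13 to 0.026, above 0 without A), genes repressed in brain (-0.11 to 0.24, below 0 without A) and the pituitary axis (-0.050 to 0.35, below 0 without F).

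With 3 mice a group, the 95% intervals of most members span changes of 1.3-fold or more, and Hr and Crym in liver rest on under 35 counts a library. The labels give no feeding state, collection time, sex or dissection, so none of these entered a fit.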
